A study of Homo sapiens with 2 samples.

Results

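The genes described here are PINK1, the mitophagy receptor genes BNIP3, BNIP3L, FUNDC1, BCL2L13, FKBP8, PHB2, OPTN and CALCOCO2, and TBK1, the kinase of the soluble receptors. They were chosen by name and role, with earlier results of these data known. All 10 were found among the 23321 genes of the deposited table, 1 row each. The RNA came from AGS, an established cell line of human gastric adenocarcinoma. The control library came from AGS cells with the genotype label WT that carried a negative control plasmid, and the GGT7 library from AGS cells with ectopic expression of GGT7, which belongs to the gamma-glutamyltransferases. Both had been stably transfected and both were labelled 2 weeks, and the labels do not say whether a line was 1 clone or a pool. There was 1 library per group, so no difference below was checked in replicates and none has a p-value. The series title links GGT7 to RAB7 and mitophagy, and the question taken here is how the RNA of PINK1 and of the receptors compared between the libraries.

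Mitophagy removes mitochondria by enclosing them in autophagosomes. PINK1 is imported and degraded in healthy mitochondria, but it builds up on the outer membrane of damaged ones, where it phosphorylates ubiquitin. Phosphorylated ubiquitin chains are bound by soluble receptors such as OPTN and CALCOCO2 (NDP52), and TBK1 phosphorylates OPTN so that it binds more firmly. A second route needs no ubiquitin: BNIP3, BNIP3L (NIX), FUNDC1, BCL2L13 and FKBP8 sit in the outer membrane and PHB2 in the inner membrane, and each binds LC3 or GABARAP proteins on the growing autophagosome directly. Much of this control acts on the proteins, which were not measured here.

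The deposited counts summed to 13482913 in the control against 10289206 in the GGT7 library. GGT7 itself had 90 counts in the control against 470 in the GGT7 library, a ratio of 6.84 (5.45 to 8.67) in FPKM, which scales a count by the gene's length and the library's total. Bracketed ranges after a ratio are exact 95% intervals of the ratio of counts and cover counting error only. Of the epithelial markers, KRT18 was at 111 and 117 FPKM in the control and GGT7 libraries, KRT8 at 70.0 and 45.4, EPCAM at 2.29 and 1.57, CLDN4 at 2.71 and 2.96, and CDH1 at 0.482 and 0.779, so they did not share a direction. Among markers of other cell types PTPRC had 5 counts in each library, PECAM1 13 and 17, and ACTA2 15 and 28, while COL1A1 stood at 2.46 and 1.60 FPKM. CD68, a lysosomal membrane protein common in macrophages, stood at 1.11 and 6.08 FPKM, and its exons overlap another annotated gene. The part of these markers in the results was not tested. In bulk RNA, fewer cells with a transcript and less of it per cell cannot be told apart.

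The length behind the deposited FPKM bears on any comparison between genes. For 85.4% of 11714 genes with at least 50 counts in each library it equalled, within 0.1%, the summed length of all distinct annotated exons, with overlapping exons of alternative transcripts counted again. This held for 9 of the 10 genes, all but BNIP3L. Genes whose distinct exons overlap more are therefore set lower. The deposited length exceeded the merged exonic length 3.40-fold for PHB2 and 2.70-fold for BCL2L13, but 1.28-fold for TBK1. This factor did not simply follow the number of annotated transcripts: it was 1.72 for CALCOCO2 with 28 and 1.54 for PINK1 with 3. Levels are given below as deposited FPKM and, where genes are compared with each other, per kilobase of merged exonic sequence of GENCODE 29 (exonic FPKM). The ratio between the libraries is the same on both scales. The order of the genes within a library depends on the length used, which the counting intervals do not cover.

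All 10 genes were expressed in both libraries, with 134 to 2404 counts and 2.98 to 29.3 deposited FPKM. On the exonic scale FKBP8 had the highest level in the control, 61.4 FPKM, followed by PHB2 at 41.6, PINK1 at 21.4, TBK1 at 17.5 and OPTN at 11.1. CALCOCO2 at 9.48, BNIP3L at 8.89, BCL2L13 at 8.04, FUNDC1 at 7.69 and BNIP3 at 6.06 came below. The steps from CALCOCO2 to BNIP3L, from BNIP3L to BCL2L13 and from BCL2L13 to FUNDC1 lay within counting error, while every other step between neighbours exceeded it. On the deposited scale PHB2 was only the fourth and BCL2L13 the last, and PINK1 and TBK1 were within counting error of each other.

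The order in the GGT7 library was close to that of the control. FKBP8 at 64.9 and PHB2 at 46.5 exonic FPKM led again, and BNIP3 at 6.42 was again the lowest. PINK1 at 15.6, TBK1 at 14.3 and CALCOCO2 at 13.5 now followed each other, with PINK1 against TBK1 and TBK1 against CALCOCO2 within counting error. CALCOCO2 stood above OPTN at 11.9, a ratio of 1.14, whereas in the control OPTN had stood above CALCOCO2 by 1.18, and both intervals left out 1. BCL2L13 at 11.5 stood above BNIP3L at 10.6, the reverse of the control, although this step was within counting error in both libraries, and FUNDC1 was at 9.31.

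**Figure D1:**
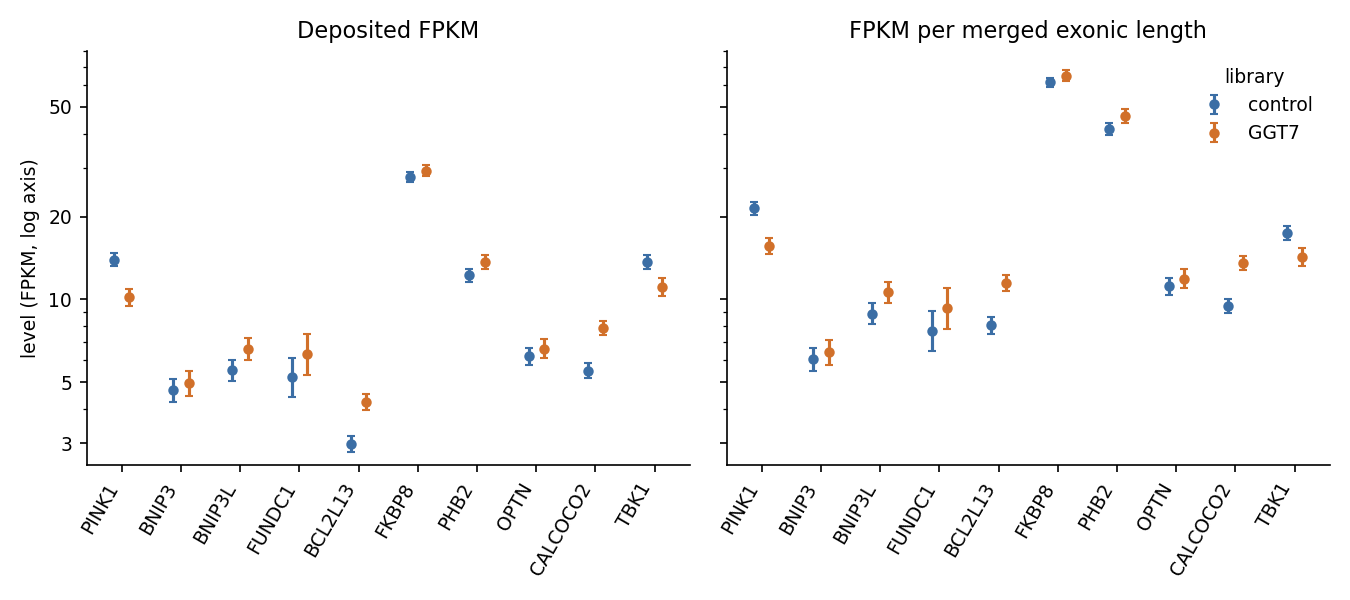
Level of each gene in the control (blue) and the GGT7 library (orange), as deposited FPKM on the left and as FPKM per merged exonic length on the right, on log axes; bars are exact 95% Poisson intervals of the counts, and each point is 1 library. FKBP8 is highest on both scales, and PHB2 moves from 12.2 to 41.6 FPKM in the control when its length is merged.

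Small differences of both signs separated the libraries. The ratio of the GGT7 to the control library was above 1 for 8 genes and below 1 for PINK1 and TBK1. Of the 14215 measured genes, 6430 had a log2 difference above 0 and 7785 below 0. No gene reached 1.5-fold on the log2(FPKM + 1) scale in either direction, against 3.90% of the 14215 measured genes that were 1.5-fold or more higher and 4.97% that were 1.5-fold or more lower. Genes that reached 1 FPKM in at least the higher of the libraries count as measured. All 10 genes lay within 1.5-fold, as did 91.1% of measured genes. By a smaller rule of size, a ratio of 5 to 4, CALCOCO2 and BCL2L13 were higher and PINK1 was lower, beside 11.8% of measured genes higher and 15.0% lower. Counting intervals of the ratios were above 1 for 4 genes (CALCOCO2, BCL2L13, BNIP3L and PHB2), below 1 for 2 (PINK1 and TBK1) and included 1 for 4. Over all measured genes 19.6% were above, 25.4% below and 55.0% included 1. Among the genes with 200 counts or more over both libraries, as all 10 genes have, 23.5% were above and 30.6% below. The median log2 difference was 0.12 over the 10 genes and -0.03 over all measured genes.

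**Figure D2:**
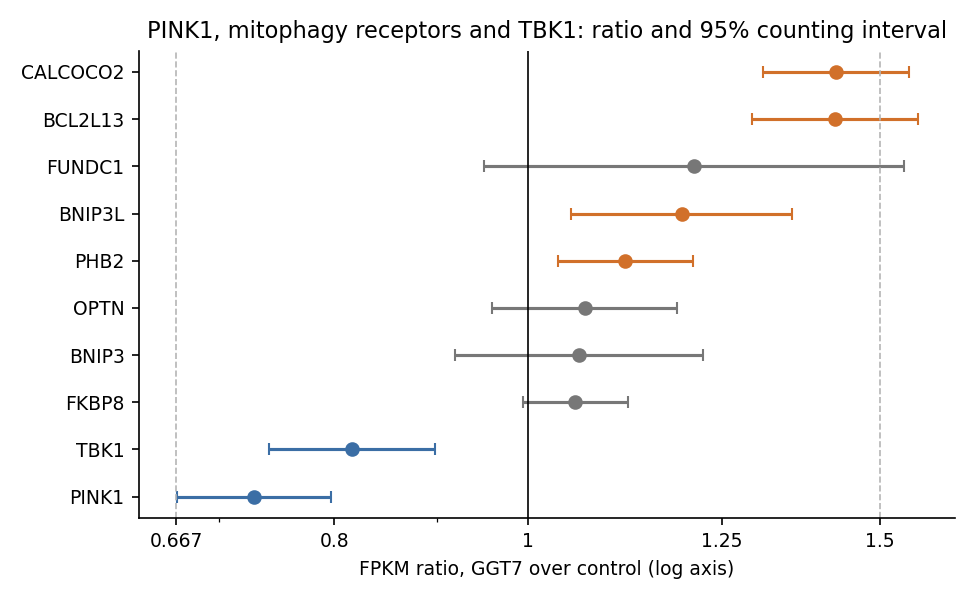
Ratio of the GGT7 to the control library in FPKM for each gene, with its exact 95% counting interval, on a log axis; orange marks intervals above 1, blue below 1 and grey those that include 1, and dashed lines mark 1.5-fold. CALCOCO2 and BCL2L13 are at the upper end with 1.43 and 1.42, TBK1 and PINK1 at the lower end with 0.816 and 0.729.

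PINK1 (ENSG00000158828, GRCh38 chromosome 1, 20633455 to 20651511, plus strand), the kinase that marks damaged mitochondria, was the gene with the lowest ratio. It had 1398 counts in the control against 778 in the GGT7 library, which are 13.96 and 10.2 deposited FPKM. The control was the higher library, and the counting intervals of the 2 levels did not overlap. The ratio of the GGT7 to the control library was 0.729 (0.667 to 0.797), which is 1.37-fold lower and a log2 difference of -0.42. Among all measured genes 9.78% had a lower log2 difference and 17.4% a larger one in size. PINK1 shares 1907 of its merged exonic bases, 39.4%, with the antisense gene PINK1-AS, which was not analysed here. Whether the counting used strand is not stated in the labels, so reads of both genes cannot be told apart.

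TBK1 (ENSG00000183735, chromosome 12, 64451880 to 64502108, plus strand), which phosphorylates OPTN and other autophagy receptors and is also a kinase of innate immune signalling, differed in the same direction as PINK1. Its counts were 1122 in the control against 699 in the GGT7 library, or 13.6 and 11.1 deposited FPKM. The control library was again the higher one, without overlap of the counting intervals. TBK1 was 1.22-fold lower (1.11 to 1.35), and 33.5% of measured genes had a larger log2 difference in size. An antisense gene, AC135279.3, shares 702 exonic bases with TBK1 and had 4 and 1 counts of its own in the control and GGT7 libraries.

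CALCOCO2 (ENSG00000136436, chromosome 17, 48830988 to 48866522, plus strand) encodes NDP52, the soluble receptor that binds ubiquitin on mitochondria and bacteria and recruits the autophagy initiation complex. It had 1065 counts in the control against 1159 in the GGT7 library in spite of the smaller total of the latter, or 5.51 and 7.86 deposited FPKM. The GGT7 library was higher, without overlap of the counting intervals, by a ratio of 1.43 (1.31 to 1.55). The log2 difference of 0.44 was exceeded by 6.94% of measured genes. OPTN (ENSG00000123240, chromosome 10, 13099449 to 13138308, plus strand), the other soluble receptor, had 772 and 629 counts, or 6.20 and 6.62 FPKM in the control and GGT7 libraries. Its ratio of 1.07 (0.959 to 1.19) did not differ from 1 beyond counting error. The ratio of CALCOCO2 exceeded that of OPTN by 1.34 (1.17 to 1.53), so the pair did not differ alike between the libraries. CALCOCO2 shares no exonic base with another annotated gene, while OPTN shares 147 bases with CCDC3, which had 2 and 0 counts.

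The promoter windows of CALCOCO2, TBK1 and BNIP3 are shown because they cover a gene that was higher, one that was lower and one within counting error, and because each holds the letters ACGTG. These letters are the core of the site bound by hypoxia-inducible factors, and with a C in front, as CACGTG, they form the E-box read by factors such as MYC and TFE3. The sequences are from RefSeq on GRCh38.p14, from 250 bases before to 50 after a gene start, written 5′ to 3′ on the gene's strand; capitals mark ACGTG or its reverse CACGT. The windows are chr17:48830785-48831084 on the plus strand for CALCOCO2, chr12:64451870-64452169 on the plus strand for TBK1 and chr10:131981874-131982173 on the minus strand for BNIP3.
CALCOCO2: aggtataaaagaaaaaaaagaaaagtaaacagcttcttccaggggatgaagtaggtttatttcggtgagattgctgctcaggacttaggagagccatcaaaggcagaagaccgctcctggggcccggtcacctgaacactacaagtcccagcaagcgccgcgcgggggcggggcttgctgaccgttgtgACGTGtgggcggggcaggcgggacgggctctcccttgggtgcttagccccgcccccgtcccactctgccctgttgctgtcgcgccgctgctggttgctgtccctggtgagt
TBK1: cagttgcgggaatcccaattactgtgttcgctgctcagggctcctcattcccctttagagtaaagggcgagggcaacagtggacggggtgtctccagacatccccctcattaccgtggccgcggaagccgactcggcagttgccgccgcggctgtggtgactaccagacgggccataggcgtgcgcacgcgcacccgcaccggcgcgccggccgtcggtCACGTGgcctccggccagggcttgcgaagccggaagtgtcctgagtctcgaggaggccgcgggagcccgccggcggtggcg
BNIP3: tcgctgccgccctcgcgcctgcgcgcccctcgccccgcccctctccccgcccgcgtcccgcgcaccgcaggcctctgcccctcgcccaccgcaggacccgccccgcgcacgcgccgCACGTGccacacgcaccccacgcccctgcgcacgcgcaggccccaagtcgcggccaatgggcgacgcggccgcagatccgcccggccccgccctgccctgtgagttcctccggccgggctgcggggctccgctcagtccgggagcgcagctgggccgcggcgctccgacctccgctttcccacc
Both strands were searched, and a CACGTG counts as a match of either motif. ACGTG was found for these 3 of the 7 genes whose windows were searched, BNIP3, FUNDC1, BCL2L13, PHB2, OPTN, CALCOCO2 and TBK1, and in 24.9% of all genes with such a window. CACGTG was found for BNIP3 and TBK1 and in 8.77% of all genes. The 3 genes that hold the letters lay at ratios of 1.43, 0.816 and 1.06, so they did not share a direction. Windows of PINK1, FKBP8 and BNIP3L were not analysed here.

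BNIP3 and BNIP3L are related outer membrane proteins of the BCL2 family that act as receptors in hypoxia and in the removal of mitochondria from maturing red cells. BNIP3 (ENSG00000176171, chromosome 10, 131966455 to 131982013, minus strand) was counted 435 times in the control against 352 in the GGT7 library, or 4.67 and 4.95 deposited FPKM. Its ratio of 1.06 (0.919 to 1.22) was within counting error, and 78.9% of measured genes had a larger log2 difference in size. The related locus BNIP3P1 matches 657 bases of a BNIP3 transcript at 97.4% identity and had 15 and 10 counts in the control and GGT7 libraries, so reads may have been split. BNIP3L (ENSG00000104765, chromosome 8, 26382898 to 26505636, plus strand) had 516 and 470 counts, or 5.54 and 6.61 FPKM. The GGT7 library was higher by a ratio of 1.19 (1.05 to 1.36), though the counting intervals of the levels met: 5.07 to 6.04 FPKM in the control and 6.03 to 7.24 in the GGT7 library. The ratios of BNIP3L and BNIP3 differed from each other by 1.13 (0.929 to 1.36), which is within counting error. BNIP3L shares 330 exonic bases with PNMA2 on the opposite strand, which had 100 and 47 counts.

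BCL2L13 (ENSG00000099968, chromosome 22, 17628855 to 17730855, plus strand), an outer membrane member of the BCL2 family and the mammalian counterpart of the yeast receptor Atg32, had nearly the same ratio as CALCOCO2. It had 831 counts in the control against 903 in the GGT7 library, or 2.98 and 4.24 deposited FPKM. The GGT7 library was higher without overlap of the counting intervals, by a ratio of 1.42 (1.29 to 1.57). The log2 difference was 0.40 with the deposited FPKM, and 8.50% of measured genes exceeded it. No other annotated gene shares exonic bases with BCL2L13.

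FKBP8 (ENSG00000105701, chromosome 19, 18531751 to 18544077, minus strand), a membrane-anchored member of the FK506-binding protein family that also binds BCL2, had the highest level and one of the smallest differences. It had 2404 counts in the control against 1937 in the GGT7 library, or 27.8 and 29.3 deposited FPKM. The ratio of 1.06 (0.994 to 1.12) included 1 when libraries were scaled by their totals. The interval lay above 1 under the other 3 scalings tried, from 1.003 to 1.13 with edgeR's TMM factors. FUNDC1 (ENSG00000069509, chromosome X, 44523639 to 44543001, minus strand), a receptor that hypoxia activates by dephosphorylation, had the fewest counts, 145 in the control against 134 in the GGT7 library, or 5.22 and 6.32 FPKM. Its ratio of 1.21 (0.950 to 1.54) was as large as that of BNIP3L but could not be told from 1 at this depth. A related locus, AP000926.1, matches 454 bases of a FUNDC1 transcript at 92.5% identity and had 30 and 22 counts, so reads may have been split. A further gene, AC005387.1, shares 18 exonic bases with FKBP8.

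PHB2 (ENSG00000215021, chromosome 12, 6965327 to 6970825, minus strand), prohibitin 2, forms rings with prohibitin 1 in the inner membrane and is exposed as a receptor when the outer membrane breaks. It had 1400 counts in the control against 1195 in the GGT7 library, or 12.2 and 13.7 deposited FPKM. The GGT7 library was higher by a ratio of 1.12 (1.03 to 1.21), and 57.5% of measured genes had a larger log2 difference in size. The small RNA gene SCARNA12 lies within PHB2, shares 239 exonic bases and had 3 and 1 counts.

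By role, the summed exonic level of the 5 outer membrane receptors was 92.1 FPKM in the control against 103 in the GGT7 library. Their summed counts, which give longer genes more weight than exonic levels do, had a ratio of 1.15 (1.10 to 1.20). Taken singly, BNIP3, FUNDC1 and FKBP8 had intervals that included 1. The 2 soluble receptors summed to 20.6 and 25.4 FPKM, with a ratio of summed counts of 1.28 (1.19 to 1.36), though the interval of OPTN by itself included 1. PINK1 made up 11.1% of the summed exonic level of all 10 genes in the control against 7.65% in the GGT7 library, while TBK1 made up 9.04% and 6.98%. The outer membrane receptors made up 47.7% and 50.2%, and PHB2 21.5% and 22.7%. PINK1 and TBK1 held a smaller share of the summed level in the GGT7 library, and the receptors a larger one.

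The ratios of the genes were also set against each other in all 45 pairs, with exact intervals that again cover counting error only. The interval left out 1 in 26 pairs. PINK1 and TBK1 were each below all 8 receptor genes in this way, and within counting error of each other. CALCOCO2 exceeded PINK1 by 1.96 (1.73 to 2.21) and TBK1 by 1.75 (1.54 to 1.99). Among the 28 pairs of receptor genes the interval left out 1 in 10, each with CALCOCO2 or BCL2L13 as the higher gene. In the 15 pairs of BNIP3, BNIP3L, FUNDC1, FKBP8, PHB2 and OPTN it left out 1 in 0. The share of such pairs among all measured genes was not computed, so these counts do not set the 10 genes apart. For single genes with 200 counts or more, 23.5% had an interval above 1 and 30.6% below 1.

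**Figure D3:**
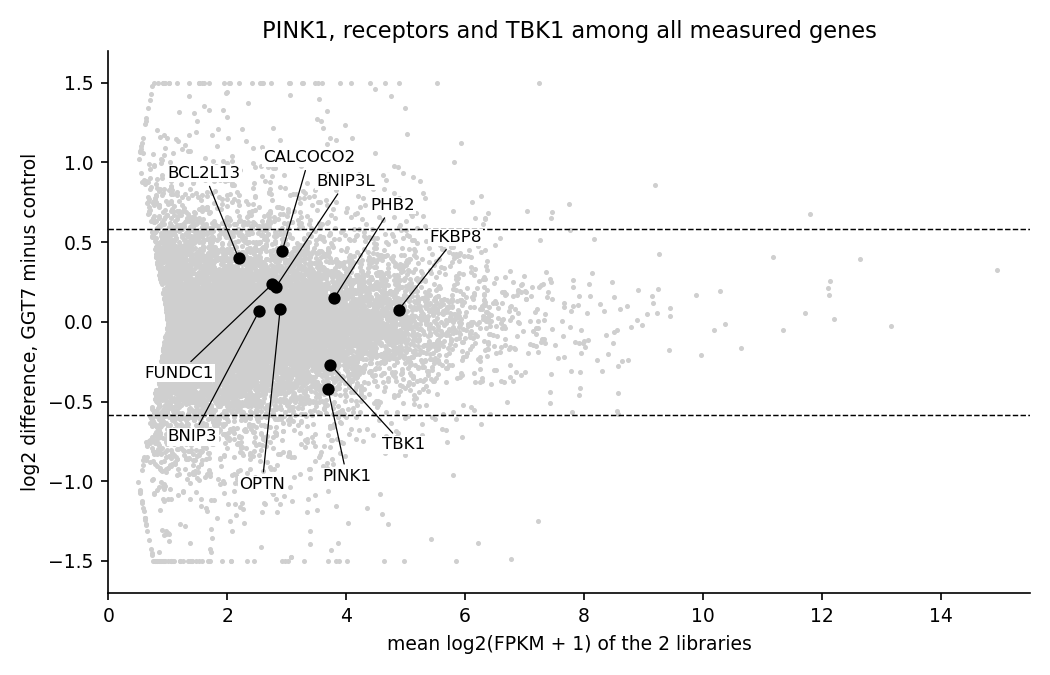
Difference between the libraries against mean level, both in log2(FPKM + 1), for all 14215 measured genes (grey) and the 10 genes described (black); dashed lines mark 1.5-fold and differences past 1.5 are drawn at 1.5. All 10 lie between the dashed lines, from -0.42 for PINK1 to 0.44 for CALCOCO2.

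Several of the genes have a relative in the same family, and in 3 of 5 such pairs the ratios differed beyond counting error. How often pairs of other genes differ in this way was not computed. CALCOCO1, a relative of CALCOCO2 and a receptor for the endoplasmic reticulum that was added after its values were seen, had 1180 counts in the control against 723 in the GGT7 library, a ratio of 0.803 (0.731 to 0.882). The ratio of CALCOCO2 exceeded that of CALCOCO1 by 1.78 (1.57 to 2.02). FUNDC2 had 979 and 546 counts and a ratio of 0.731 (0.657 to 0.812), so that FUNDC1 exceeded it by 1.66 (1.27 to 2.16); FUNDC2 shares 161 exonic bases with F8. PHB, the gene of prohibitin 1 and obligate partner of PHB2, had 1567 and 986 counts and a ratio of 0.825 (0.761 to 0.893). PHB2 exceeded PHB by 1.36 (1.21 to 1.52), with the limit that PHB shares 963 exonic bases with the antisense gene AC091180.3. IKBKE, the kinase most like TBK1, had 154 and 103 counts and a ratio of 0.876 (0.676 to 1.13), within counting error of that of TBK1.

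**Figure D4:**
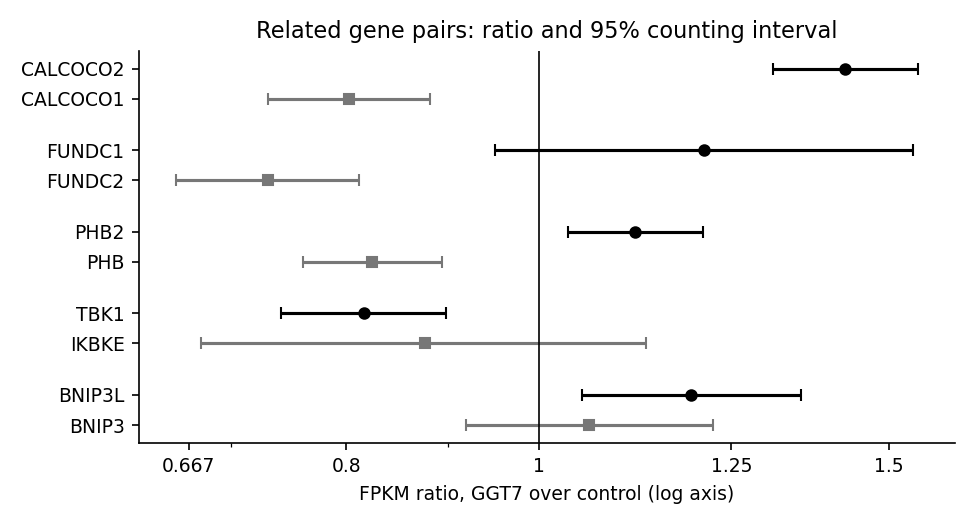
Ratio of the GGT7 to the control library in FPKM for 5 related pairs, with exact 95% counting intervals on a log axis; circles are the first and squares the second gene of a pair. CALCOCO2 and PHB2 lie above 1 and their relatives CALCOCO1 and PHB below 1, while TBK1 and IKBKE overlap.

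Of 25 measured genes for the import and cleavage of PINK1, its ubiquitin ligases, deubiquitinases and substrates, all 25 lay within 1.5-fold. Of these, 6 (24%) had an interval above 1 and 6 (24%) below 1, and the median log2 difference was -0.01. Over all measured genes 91.1% lay within 1.5-fold, 19.6% had an interval above 1 and 25.4% below 1, and the median was -0.03. With 200 counts or more over both libraries, as all 25 have, 23.5% of genes were above 1 and 30.6% below 1. PARL, the protease that cleaves PINK1 in the inner membrane, was at 4.38 FPKM in the control against 4.45 in the GGT7 library, a ratio of 1.01 (0.832 to 1.24) and shares exonic bases with AC131160.1. TOMM7, which holds PINK1 at the import pore, was 1.20-fold higher (1.02 to 1.41). USP30, a deubiquitinase of the outer membrane that opposes mitophagy, was at 1.40 and 1.10 FPKM, a ratio of 0.788 (0.620 to 0.997), with an antisense gene on its exons. The ends of the list were RHOT1, a GTPase of mitochondrial transport, 1.33-fold higher (1.18 to 1.51), and MUL1, a mitochondrial ubiquitin ligase, with a ratio of 0.755 (0.644 to 0.883). RHOT1 overlaps an antisense gene.

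Among the 9 measured further receptors and adaptors, 3 (33.3%) had an interval above 1 and 2 (22.2%) below 1, with a median log2 difference of 0.02. The shares over all measured genes were 19.6% and 25.4%, and over those with 200 counts or more, as all 9 have, 23.5% and 30.6%. NBR1 was 1.35-fold higher (1.26 to 1.44) and TAX1BP1 1.26-fold higher (1.18 to 1.34), both soluble receptors like CALCOCO2. SQSTM1 (p62), also a soluble receptor, had a ratio of 0.852 (0.814 to 0.891). All of these share exonic bases with genes on the opposite strand. Of the ATG8 proteins that receptors bind, 5 were measured. MAP1LC3B, the gene of LC3B, was 1.56-fold higher (1.46 to 1.68), and it shares 150 exonic bases with FBXO31. It was the single one of the 5 past 1.5-fold, beside 3.90% of all measured genes that were 1.5-fold or more higher. GABARAPL2 had a ratio of 0.811 (0.711 to 0.925). The list had a median of 0.02. The 12 genes of the initiation complexes had a median of 0.02, with ATG13 at 1.36 (1.24 to 1.48) and PIK3R4 at 0.819 (0.749 to 0.896) as its ends, and ATG13 overlaps HARBI1. RAB7A, the GTPase of the title, had a ratio of 0.985 (0.925 to 1.05).

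Partners and regulators of TBK1 and of single receptors were measured as well. Of 8 measured partners of TBK1, 1 (12.5%) had an interval above 1 and 2 (25%) below 1, with a median of -0.04. The shares over all measured genes were 19.6% and 25.4%, and over those with 200 counts or more, as all 8 have, 23.5% and 30.6%. The adaptor gene TANK was 1.36-fold higher (1.17 to 1.57) and the adaptor gene TBKBP1 had a ratio of 0.792 (0.678 to 0.925). Of 8 measured genes in the FUNDC1 list, which holds regulators and the relative FUNDC2, 1 was past 1.5-fold. Beside it, 4.97% of all measured genes were 1.5-fold or more lower. This was CSNK2A1, a catalytic subunit of the kinase CK2 that phosphorylates FUNDC1. CSNK2A1 had 1685 counts in the control against 675 in the GGT7 library, a ratio of 0.525 (0.479 to 0.574). The second catalytic subunit, CSNK2A2, was at 1.08 (1.02 to 1.15), and the phosphatase gene PGAM5 that acts against CK2 at 1.01 (0.897 to 1.13). Of 8 measured partners of PHB2, 0 had an interval above 1 and 4 had one below 1, with a median of -0.12, beside the 19.6% of all measured genes above 1 and 25.4% below 1. For genes with 200 counts or more over both libraries, as all 8 have, the shares were 23.5% and 30.6%. PHB2 itself had a log2 difference of 0.15. AFG3L2, a protease of the inner membrane held by prohibitins, was farthest above at 1.07 (0.985 to 1.17), and PHB farthest below. AFG3L2 overlaps TUBB6.

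The 11 genes for turnover, binding partners and transcription factors of BNIP3 and BNIP3L were mostly above 1: 7 had an interval above 1 and 1 below 1, and the median log2 difference was 0.18, beside 19.6% above 1, 25.4% below 1 and a median of -0.03 over all measured genes. All 11 have 200 counts or more over both libraries, and of all such genes 23.5% were above 1 and 30.6% below 1. FBXL4 and PPTC7, which together hold BNIP3 and BNIP3L proteins low, were at ratios of 1.16 and 1.21, both with an interval above 1. BCL2L1, the gene of BCL-XL, was 1.47-fold higher (1.36 to 1.59) and overlaps the antisense gene ABALON, MCL1 was at 1.12 (1.08 to 1.17), and BCL2 at 0.740 (0.613 to 0.893). FOXO3, a transcription factor that activates BNIP3, was at 1.24 (1.13 to 1.35).

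**Figure D5:**
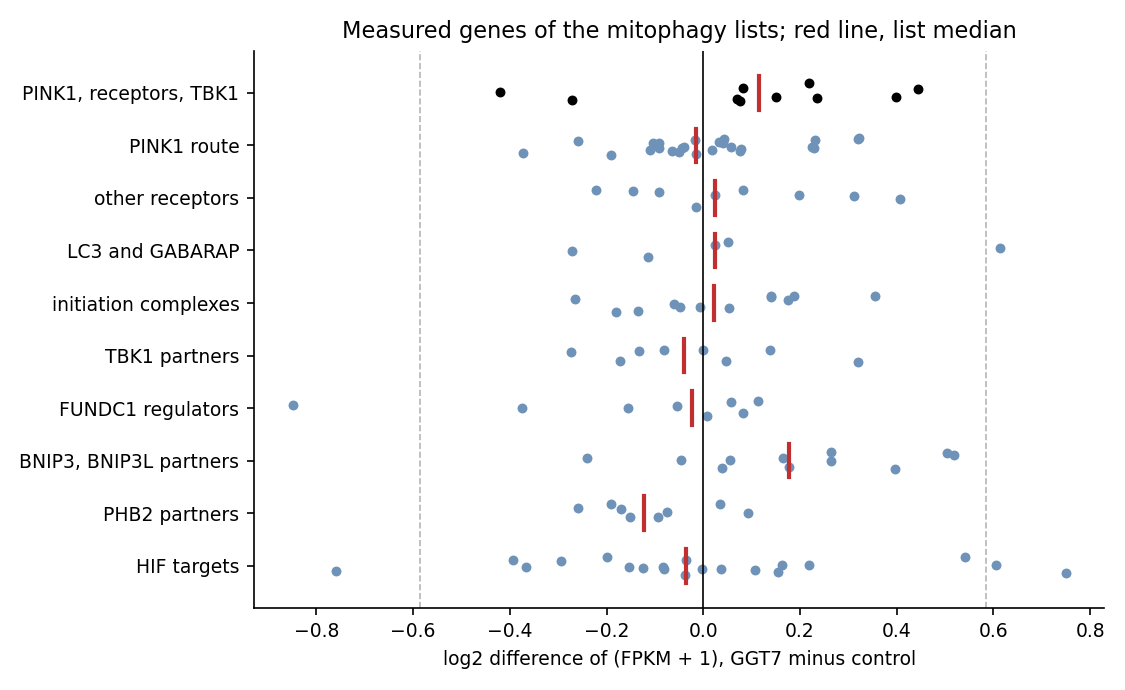
Log2 difference of (FPKM + 1), GGT7 minus control, for each measured gene of PINK1, the receptors and TBK1 (black) and of the lists around them (blue), with list medians in red and 1.5-fold as dashed lines; the vertical spread within a list only separates the points. The 10 genes span -0.42 to 0.44, and 1 ATG8 gene, 1 FUNDC1 regulator and 3 HIF targets lie past 1.5-fold. Over all measured genes 3.90% are 1.5-fold or more higher and 4.97% are 1.5-fold or more lower.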

How the data were processed

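RNA of 2 AGS libraries, 1 per group, was sequenced, with 1 ug of total RNA going into each library and Illumina's standard preparation, per the labels' protocols. Per the submitters' processing notes, the build was GRCh38 and the tools were edgeR, StringTie 1.3.0 and HISAT2. The counting tool, annotation and strand setting were not given in the sources used here. For each gene the authors deposited, per the file headers, 1 FPKM value and 1 count for either library. The deposited counts were whole in every intact row; since 1 broken line holds shifted cells, the deposited values are recorded under expected counts, with no rounding needed. Of 23378 lines, 23376 were used; the broken line was left out together with the preceding row, which is empty of values. In 23 rows a date stood for the symbol and was replaced by the GENCODE 29 symbol of the gene ID, and rows that share a symbol were summed.

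Differences are log2((GGT7 FPKM + 1)/(control FPKM + 1)), GGT7 minus control, which understates the change of low genes, and ratios are of FPKM without the pseudocount. Measured genes reach 1 FPKM in the higher library, and 1.5-fold was the rule of size. Ratios of counts have exact 95% intervals by the Clopper-Pearson method on the conditional share. Pairs have exact conditional intervals of the odds ratio, and levels have exact Poisson intervals. With 1 library per group, these intervals cover counting error only. The reads carry no stated molecular identifiers, so reads copied from 1 molecule cannot be told apart. The limit for a gene at 0 was set at 3 counts, or 0.223 CPM in the control and 0.292 CPM in the GGT7 library. No test of groups was run. Overlaps are shared exonic bases in GENCODE 29 on either strand, and copies were sought with BLAST 2.17.0 at 90% identity over 10% of a transcript. For the surrounding genes the limits were an overlap of 100 bases, and copies at 95% identity over 30%.

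The 10 genes and all lists were chosen with earlier results of these data known. Named are the 10 genes, a fixed set of partners by role, the ends of each list, overlapping genes and copies. Alternatives were other pseudocounts, filters, rules of size and scalings (edgeR 4.0.16, DESeq2 1.42.0), rows as deposited, and genes without overlap; merged exonic lengths and protein-coding genes alone were added after seeing the data. EPAS1, ARNT, P4HA1, NDRG1 and CALCOCO1 were named after their values were seen. The interval calculation was tested on simulated data. Python 3.11.15, scipy 1.17.1, pandas 2.3.3 and R 4.3.3 were used.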

Additional observations from a re-analysis of the deposited data

How the results depend on the processing

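The ratios of the 10 genes stayed inside their counting intervals under TMM, DESeq2 size factors and upper quartile scaling, which raise every ratio by a factor of 1.009, 1.02 and 1.03. PINK1 lay between 0.729 and 0.750 and CALCOCO2 between 1.43 and 1.47. The count of genes past 1.5-fold among the 10 was 0 each way under every alternative but the rule of 5 to 4, which gave 2 higher and 1 lower. Several alternatives could not have raised a count of 0. These were the 2-fold rule, the higher pseudocount, the changed filters, rows as deposited, genes without overlap and protein-coding genes alone. Their median log2 difference lay between 0.09 and 0.15 except over the 4 genes without an exon overlap, where it was 0.32, and PINK1 and TBK1 are not among those 4. The median of each list moved by no more than the median width to either side of its genes' counting intervals, which is wider than the interval of its best counted genes. The farthest move was that of the TBK1 partners, from -0.04 to -0.17 at 5 FPKM, where 1 gene, MAVS, is left. The medians near 0, of the PINK1, ATG8, initiation and FUNDC1 lists, took both signs over the alternatives. Over the whole table, 554 genes were higher and 706 lower by the 1.5-fold rule; lowering the pseudocount to 0.1 gave 1013 and 1294, raising it to 5 gave 131 and 123, and requiring 5 FPKM gave 250 and 257. A 2-fold rule gave 122 and 165, the rule of 5 to 4 gave 1673 and 2127, and protein-coding genes alone 317 and 304. No paired analysis was possible because each group has 1 library and the labels give no replicate numbers. Depth limited FUNDC1 most, whose interval spans 0.950 to 1.54.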

Other observations

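BNIP3 and BNIP3L are targets of hypoxia-inducible factors, and 2 of these factors' genes, HIF1A and EPAS1, had higher levels in the GGT7 library. HIF1A was at 33.0 FPKM in the control against 47.2 in the GGT7 library, a ratio of 1.43 (1.37 to 1.49), and it shares 117 exonic bases with the antisense gene HIF1A-AS1 and 148 with AL137129.1. EPAS1, the gene of HIF-2 alpha, was at 28.0 and 37.2 FPKM, a ratio of 1.33 (1.27 to 1.38), and the partner gene ARNT at 1.04 (0.971 to 1.12). Of 20 measured further targets of these factors, 8 had a log2 difference above 0 and 12 below 0, beside 6430 and 7785 of the 14215 measured genes. Their median was -0.04, beside -0.03 over all measured genes. DDIT4 was highest at 1.69 (1.60 to 1.79) and PFKFB4 lowest at 0.490 (0.405 to 0.591), and both overlap another gene. Of 4 genes chosen after their values were seen, EPAS1 and ARNT are given above, P4HA1 was at 1.54 (1.44 to 1.66) and NDRG1 at 0.755 (0.728 to 0.782), and BNIP3 at 1.06 and BNIP3L at 1.19 lay inside the range of the list.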
